A study of Culter alburnus with 6 samples.

Results

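Stanniocalcins and the insulin-like growth factor (IGF) axis were examined in TCCF2022, a line of fibroblast-like cells from the caudal fin of Topmouth culter, a freshwater fish. The members were rows of the deposited table, chosen by the name of their closest protein in the NR database. The names sought were stanniocalcin, pappalysin, insulin-like growth factor (ligand, receptor or binding protein) and insulin receptor. The match also took in 14 rows of insulin receptor substrates and 6 of IGF2 mRNA-binding proteins, whose names hold the same words. Only 28795 of the 61608 assembled genes had any NR name, so a name missing here does not show that the gene was absent. In all, 40 of the 61608 were members. They carried 25 different names, and several rows of 1 name are probably pieces of 1 gene or near-identical copies, so they are numbered here by falling mean level. The series holds 3 control libraries (CK), which received no Forskolin, and 3 libraries (F) of cells given 5 μM Forskolin, an activator of the enzyme that makes cAMP. All 6 came from wild-type cells of the same line in serum-containing medium with bFGF, collected after 7 days, and the study called the 3 libraries of a group biological replicates. Rows were matched by annotation name alone, but the family was chosen with earlier results of these data known. Within it, stc2 was picked out for the largest fall and igf2b for its lower values in F. The values of both are therefore given as a description without a test. The RNA is that of whole cultures, in which fewer cells of a type and less RNA per cell cannot be told apart.

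IGF ligands are small secreted hormones related to insulin that act through tyrosine kinase receptors to drive growth, survival and differentiation. In body fluids and around cells most IGF is held by binding proteins, which keep it from the receptors. Pappalysins are secreted metalloproteinases that cut some of these binding proteins and so free the ligand, and in mammals stanniocalcin-2 binds pappalysin-1 and blocks the cut. In fish, stanniocalcin-1 is best known as a hormone that lowers calcium uptake, and work in zebrafish has placed stanniocalcin and the pappalysin Pappaa in the same local IGF pathway.

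Levels are given as TPM, a share of all transcripts in a library that is already corrected for the length of the assembled transcript. Levels of different genes can be set side by side only as far as the assembled lengths are complete, which was not checked. All 6 libraries summed to the same total. Correlations of log2(TPM + 1) between libraries ran from 0.875 to 0.897 within CK, from 0.891 to 0.896 within F and from 0.828 to 0.857 between the groups. The 12 rows found for fibroblast markers summed to 6132 to 6658 TPM in CK and 4218 to 6357 in F, and of 10 tested, 1 was higher, 2 lower and 7 neither. The collagen gene col1a1 had 1375 ± 353 TPM in CK and 1214 ± 293 in F (SD, n = 3 libraries each), and prrx1, a factor of limb and fin mesenchyme, 442 ± 19.6 and 445 ± 30.1 TPM, whereas vim had only 11.6 ± 5.62 and 10.6 ± 2.75 TPM. The matrix proteoglycan gene lum went from 1441 ± 132 to 276 ± 53.4 TPM (log2 change −2.40) and col1a2 from 1164 ± 40.8 to 648 ± 163 TPM (−0.88), while dcn went up from 883 ± 129 to 1572 ± 185 TPM (0.84). The 7 epithelial rows, led by krt18b and krt8, summed to 8325 to 8567 TPM in CK and 6145 to 6976 in F. Of 6 tested, 0 were higher, 3 lower (krt4, krt18 and epcam) and 3 neither. Epcam went from 83.8 ± 6.64 to 31.1 ± 1.67 TPM. Of all tested rows, 6.15% were higher and 6.07% lower. Of the 5 bone-forming cell rows, spp1, the secreted phosphoprotein osteopontin, had 14814 ± 1796 TPM in CK and 1634 ± 113 in F and runx2b 113 ± 3.23 and 62.2 ± 13.4 TPM, and both were called lower. The others were not called, among them the transcription factors sp7, at 35.4 ± 12.7 and 76.1 ± 18.4 TPM, and runx2, at 254 ± 25.8 and 252 ± 21.6 TPM. The endothelial and leukocyte rows found, fli1, mpeg1 and lcp1, stayed at or under 6.29 TPM in every library. The part of these cell types in the results that follow was not tested.

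A row entered the test when it had at least 1 TPM in at least 3 of 6 libraries, which held for 26 of the 40 members and for 37532 rows in all. F was compared with CK on log2(TPM + 1) with limma (two-sided, adjusted by Benjamini-Hochberg over all tested rows), and log2 changes are given as F minus CK. Leaving aside stc2 and igf2b, 24 member rows entered. Of these, igfbp7 reached 1 TPM in all CK libraries and in none of F, so it had to be lower, and it is described without a test and left out of the counts that follow. Of the other 23 rows, 3 were higher in F at an adjusted p under 0.05 (against 6.15% of all tested rows), 3 were lower (against 6.07%) and 17 were neither. With a log2 change beyond 1 required as well, 3 were higher (against 3.27% of all tested rows) and 1 lower (against 3.90%). Without CK replicate 1, 2 or 3 or F replicate 1, the number called lower was 1, which was stc1. At an unadjusted p under 0.05 stood 11 of the 23 rows (47.8%, against 25.7% of all tested rows). The 23 rows had a median log2 change of 0.36, against −0.01 over all tested rows. The 3 F and the 3 CK values did not overlap in 14 of the 23 rows (60.9%, against 32.1% of all tested rows). F lay above CK in 11 of these and below it in 3. The 11 were 4 rows of binding proteins, 4 of receptor substrates, 2 of IGF2 mRNA-binding proteins and 1 of a pappalysin. Among the receptor substrates, irs1b row 4 had 0.28, 0.9 and 1.06 TPM in CK and 1.25, 1.19 and 1.91 in F. The F libraries alone would have brought it into the test, and it was kept because CK replicate 3 also reached 1 TPM. Because the family was chosen with earlier results known, its shares beside those of all tested rows are a description, not a test. The member rows were also better expressed than most. A filter at 5 TPM kept 15 of the 23, against 15253 of all 37532 rows, of which 2117 were then higher and 1868 lower. How far expression level accounts for the shares above was not tested. Some of the 23 rows share a name, such as those of irs1b, and each was counted singly. With rows of 1 NR name summed, 3 of 22 were higher and 3 lower, against 2162 and 2068 of all 31498. The 3 higher were not the same set, since irs1b lost its call (limma adjusted p = 0.132) and pappaa gained one (0.0452). For a single row, the smallest p of an exact permutation test with groups of 3 is 0.1.

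**Figure D1:**
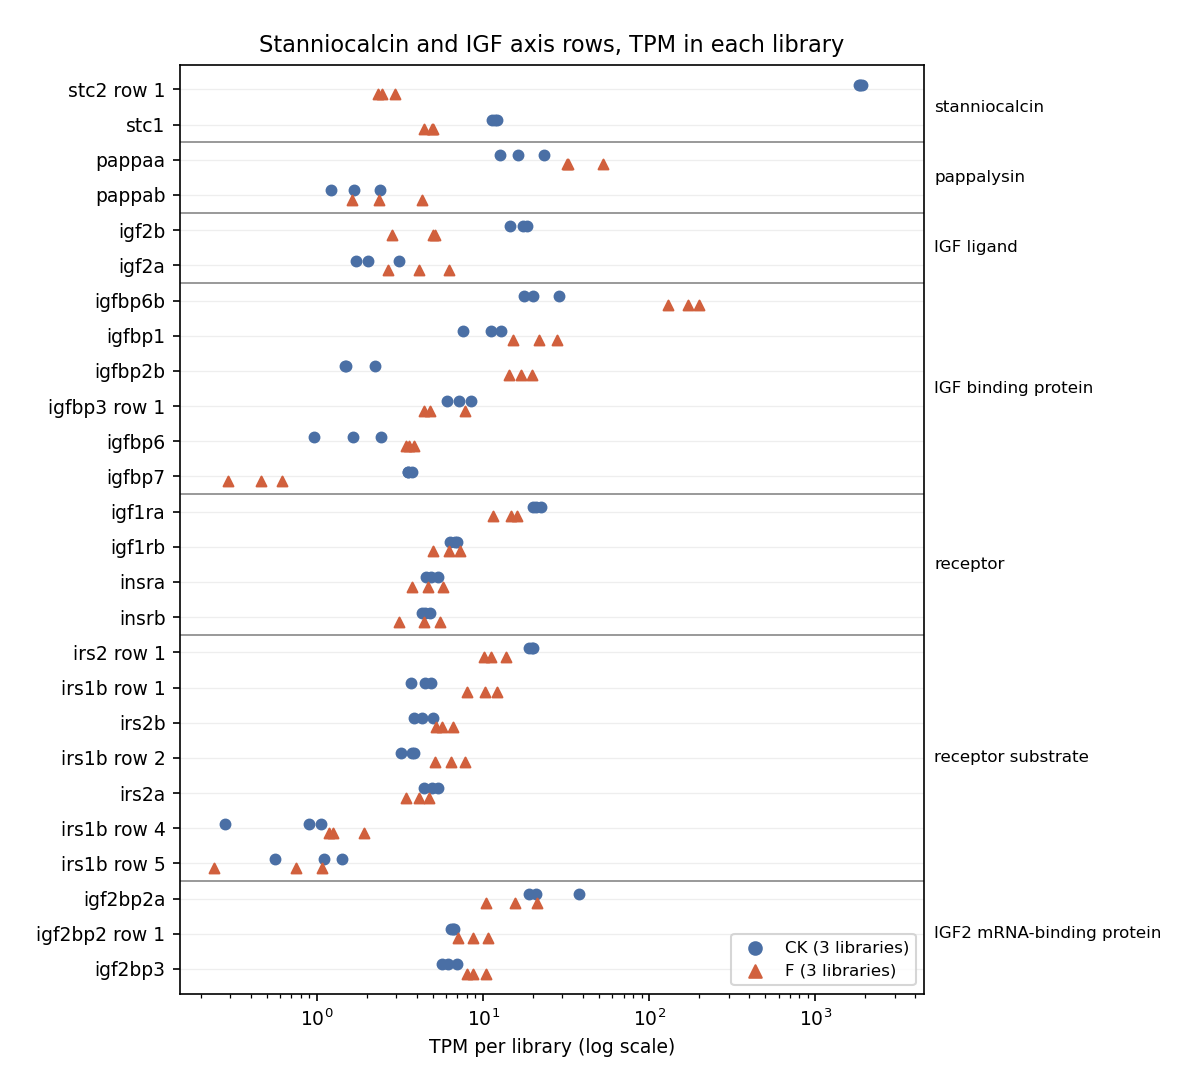
TPM of each of the 26 member rows that entered the test (log axis), with circles for the 3 CK libraries and triangles for the 3 F libraries, grouped by role. The stc2 row has 1839 to 1919 TPM in CK and 2.33 to 2.96 TPM in F, while igfbp6b has 17.7 to 28.8 TPM in CK and 130 to 199 in F.

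Within F, the libraries kept a common order in these rows. F replicate 2 had the highest and F replicate 3 the lowest value of the group in 16 of the 26 member rows (61.5%), an order found in 25.7% of all tested rows. The order shows in the TPM of the insulin receptor insra, with 4.67, 5.74 and 3.74 in F replicates 1 to 3. Median-of-ratios scaling factors for F replicates 1 to 3, which take in rows of the whole table, were 1.005, 1.072 and 0.962, the same order. The source of the order was not tested.

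Stanniocalcins are secreted glycoproteins. The leading stc2 row had 1849, 1839 and 1919 TPM in the 3 CK libraries and 2.33, 2.46 and 2.96 TPM in the 3 F libraries. The mean was thus 1869 ± 43.4 TPM in CK and 2.58 ± 0.333 in F (SD, n = 3 each), a ratio of CK to F of 723 and a log2 change of −9.03. No other tested row had a log2 change under −6.17, which was the next lowest. Because stc2 was picked out for its fall, its place as the lowest was known beforehand. By mean TPM the row ranked 73 among all rows in CK, where it held 0.187% of the total, and 22245 in F. Of the 129 rows with a mean of at least 1000 TPM in CK, it was the only 1 with a mean under 100 TPM in F. This too describes the values for which stc2 was picked out and adds no separate support. The other 3 rows named stanniocalcin-2 or stanniocalcin-2-like did not enter the test, and together they had 0 to 4.81 TPM in CK and 0.610 to 1.66 TPM in F. So the low level of stc2 in F was not made up by another assembled row of that name.

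Stc1, the calcium-regulating paralog, was also lower in F, at a far lower starting level. It had 12.1, 11.8 and 11.3 TPM in CK and 5.01, 4.91 and 4.42 in F. The groups lay apart, with a log2 change of −1.14 (SE 0.12, limma adjusted p = 0.00281), and the call held with each library left out (adjusted p of 0.00879 to 0.0246 from limma). Both the stc1 row and the leading stc2 row carried the stanniocalcin protein domain. In F the order of the 2 genes was turned around, since stc1 had 4.78 ± 0.316 TPM and stc2 2.58 ± 0.333 TPM. Summed over all 5 rows, stanniocalcins had 1883 ± 42.4 TPM in CK and 8.53 ± 0.548 in F, a sum set almost wholly by stc2.

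**Figure D2:**
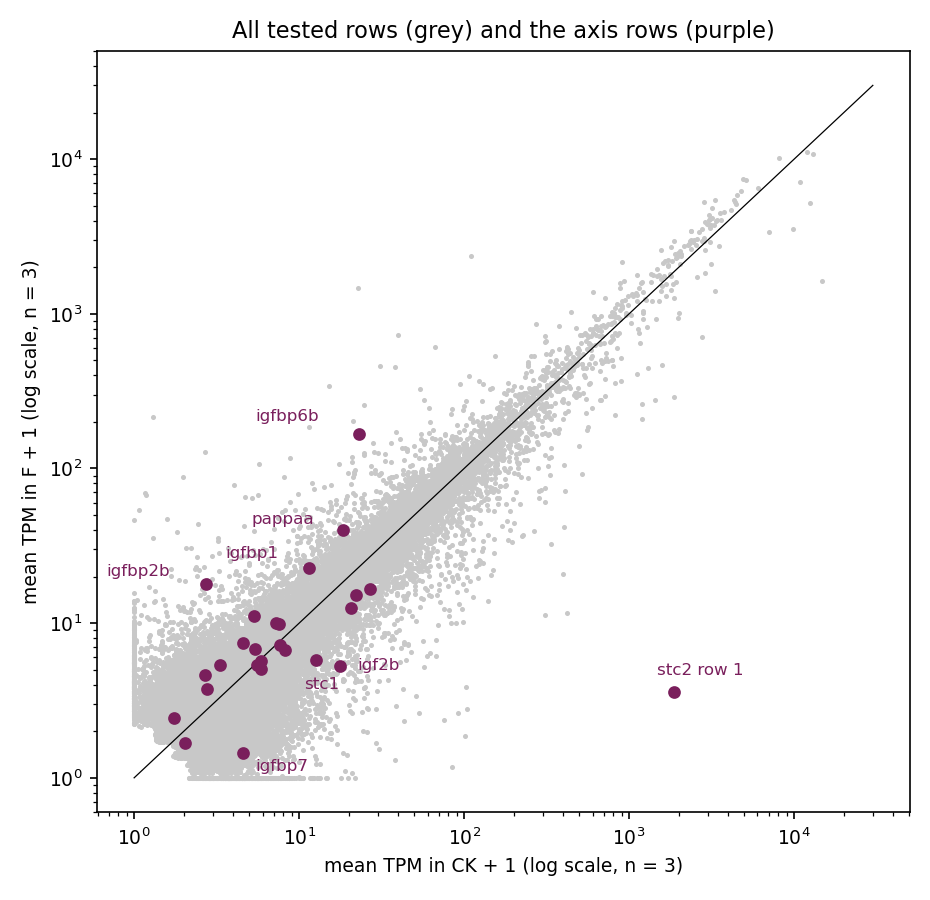
Mean TPM + 1 in F against mean TPM + 1 in CK (both log axes, n = 3 libraries each) for the 37532 tested rows in grey and the 26 member rows in purple, with the line of equal levels. The stc2 row, at 1869 TPM in CK and 2.58 in F, stands alone in the lower right, and igfbp6b and igfbp2b lie above the line.

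The rows whose profile over the 6 libraries came nearest to that of stc2 were sought among 10474 named rows with a group mean of at least 5 TPM. Likeness was measured as the mean absolute difference of log2(TPM + 1), each row centred on its own mean. For stc2 these were bmper, a secreted modulator of BMP signaling (99.9 TPM in CK and 0.877 in F, difference 1.64), sema3d, a guidance cue (1.90), itgam, an integrin chain (1.93), kera, named prolargin by NR (1.94), and dld, a Notch ligand (1.98). Even the nearest was thus far from stc2, but stc2 was picked out for the largest fall, so a wide gap was fixed by that choice. For igf2b much closer rows existed, led by mthfd1l, a mitochondrial enzyme of folate metabolism, whose log2 change was −1.74 and which differed by 0.02 on average. The next were ddit4l, sema4c, colgalt2 and tgfbr1b, which differed by 0.06 to 0.08. Such likeness over 6 libraries in 2 groups rests mainly on the size of the group difference.

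Pappalysin was represented by pappaa and pappab, both matching pappalysin-1, and no pappalysin-2 was among the rows analysed here. Pappaa had 12.7, 16.2 and 23.4 TPM in CK and 32.3, 52.4 and 31.8 in F. The groups did not overlap, but the spread within both groups was wide. The log2 change of 1.11 (SE 0.28) missed the threshold (limma adjusted p = 0.0502). It passed with a filter at 5 TPM (limma adjusted p = 0.0289), after median-of-ratios scaling (0.0334) or quantile normalization (0.0345). It also passed with rows of 1 NR name summed (0.0452) and without CK replicate 3 (log2 change 1.34, limma adjusted p = 0.0489). It did not pass with 0.1 added in place of 1 (0.0544), no filter (0.0745), no variance trend (0.0872) or a replicate block (0.0904). Nor did it pass with any other library left out (limma adjusted p of 0.0802 to 0.142). Pappab, at 1.76 ± 0.589 TPM in CK and 2.75 ± 1.36 in F, had groups that overlapped (log2 change 0.40, limma adjusted p = 0.547). The ratio of summed stanniocalcin to summed pappalysin TPM was 134, 104 and 75.0 in CK and 0.229, 0.152 and 0.270 in F. This ratio describes transcripts, since no protein or protease activity was measured, and it gets no test because stc2 sets it.

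Of the IGF ligands, 2 rows were found, igf2a and igf2b, paralogs of the single mammalian Igf2, and no row named IGF1 was among those analysed here. Igf2b had 14.6, 17.3 and 18.5 TPM in CK and 5.00, 5.12 and 2.84 in F, groups that lay apart (log2 change −1.77, given without a test). Its log2 change was only the 826th lowest of all tested rows. Igf2a, the scarcer paralog in CK, had 2.03, 1.73 and 3.13 TPM in CK and 2.66, 4.09 and 6.23 in F. These groups overlapped, and the log2 change of 0.66 (SE 0.32) did not pass the test (limma adjusted p = 0.267). Igf2b made up 85.5 to 90.9% of the igf2a and igf2b TPM in CK and 31.3 to 65.3% in F. The sum of both was 19.1 ± 2.50 TPM in CK and 8.65 ± 0.857 in F.

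The binding proteins held the largest rises among the tested members. Igfbp6b, of the subtype that in mammals prefers IGF2 over IGF1, had 28.8, 19.9 and 17.7 TPM in CK and 172, 199 and 130 in F. All F values were far above all CK values, with a log2 change of 2.87 (SE 0.22, limma adjusted p = 0.0012). Igfbp2b had 2.24, 1.49 and 1.48 TPM in CK and 16.8, 19.6 and 14.4 in F. This ratio of F to CK of 9.74 was larger than the 7.55 of igfbp6b, though the log2 change of 2.71 on the log2(TPM + 1) scale (SE 0.19, limma adjusted p = 0.000789) was smaller, because the added 1 weighs more at low levels. Both calls held with each library left out.

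Igfbp1, in mammals a binding protein that falls after insulin and rises in fasting, had 11.2, 12.8 and 7.61 TPM in CK and 21.8, 27.8 and 15.2 in F. The groups did not overlap, but the log2 change of 0.96 (SE 0.26) did not pass (limma adjusted p = 0.0698). It did without F replicate 3 (log2 change 1.18, adjusted p = 0.0455), with a filter at 5 TPM (0.0400) and with a replicate block (0.0256). In the other settings it did not pass. A further row named igfbp6, with no listed domain, had 1.68 ± 0.735 TPM in CK and 3.63 ± 0.191 in F (log2 change 0.82, limma adjusted p = 0.110). The better expressed of 2 igfbp3 rows had 7.22 ± 1.20 TPM in CK and 5.67 ± 1.85 in F, with overlapping groups (log2 change −0.33, limma adjusted p = 0.472). No row named IGFBP4 or IGFBP5, the main pappalysin targets in mammals, was among those analysed here. Rows without an NR name could not be searched, which limits this absence and those of IGF1 and pappalysin-2.

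Igfbp7 was lower in F. This protein binds IGF only weakly, and its row carried immunoglobulin and Kazal domains beside the IGFBP domain. The igfbp1, igfbp2b and leading igfbp3 rows carried IGFBP and thyroglobulin type-1 domains, and igfbp6b the thyroglobulin type-1 domain alone. Igfbp7 had 3.54, 3.52 and 3.72 TPM in CK and 0.62, 0.46 and 0.29 in F (log2 change −1.66, given without a test). All F values lay under 1 TPM, the level needed to enter the test. Binding proteins 1 to 6 summed to 51.0, 44.3 and 37.5 TPM in CK and to 219, 255 and 171 in F, and igfbp6b made up 49.5 ± 6.12% of that sum in CK and 77.4 ± 1.43% in F. The ratio of this sum to that of the IGF ligands was 2.38 ± 0.666 in CK and 25.1 ± 5.37 in F (SD, n = 3), again a description without a test.

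**Figure D3:**
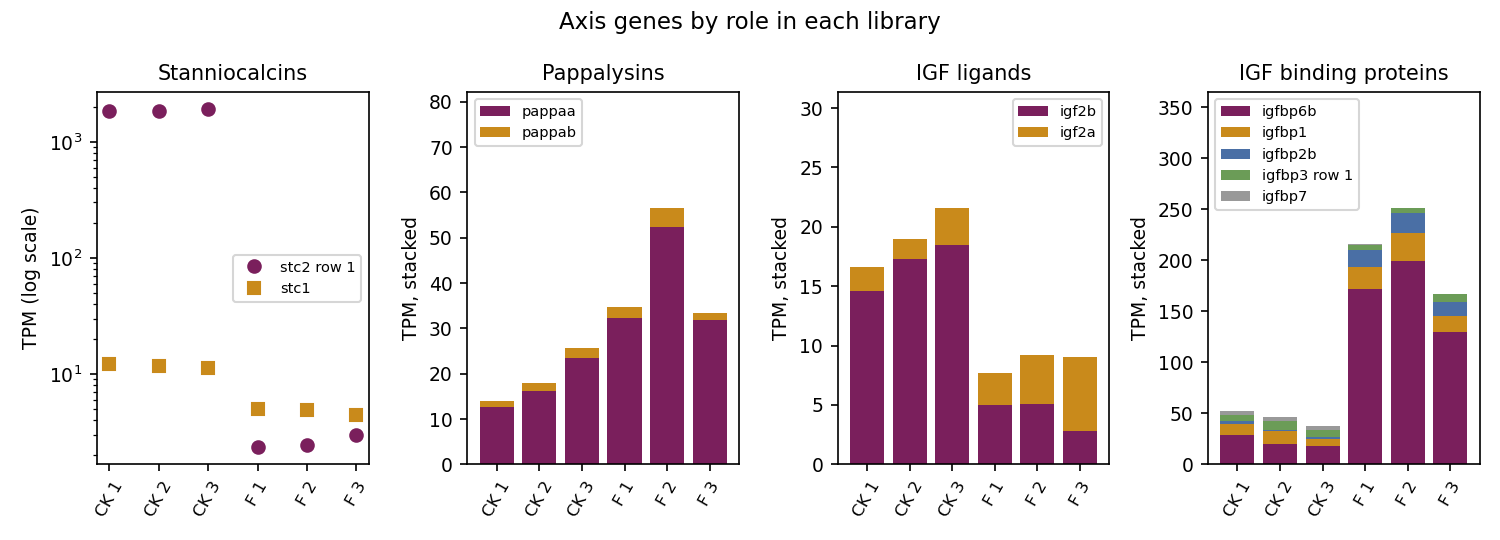
TPM in each of the 6 libraries for stanniocalcins (log axis), pappalysins, IGF ligands and IGF binding proteins (stacked bars from 0, for the rows named in each key). From CK to F the ligand sum goes from 19.1 to 8.65 TPM on average. The sum of binding proteins 1 to 6 goes from 44.3 to 215 TPM. The bars are not exactly that sum, since they include igfbp7 and leave out igfbp6 and the lower igfbp3 row.

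Of the 4 receptor rows, 1 was called lower and 3 were neither. Igf1ra, a type 1 IGF receptor that carries the growth signal, was the most abundant of them, with 22.2, 20.9 and 20.0 TPM in CK and 14.6, 16.1 and 11.4 in F. The groups lay apart and the row was called lower (log2 change −0.56, SE 0.14, limma adjusted p = 0.0490), but right at the threshold. It no longer passed without CK replicate 1, 2 or 3 (adjusted p of 0.149, 0.143 and 0.114 from limma) or without F replicate 1 or 3 (0.110 and 0.0583). Nor did it pass with 0.1 added in place of 1 (0.0527), no filter (0.0789), no variance trend (0.105) or a replicate block (0.0846). The call held in the other settings. Igf1rb, insra and insrb, the second IGF receptor and both insulin receptors, had means between 4.35 and 6.71 TPM in both groups. Their groups overlapped, with log2 changes of −0.11, −0.06 and −0.07 and adjusted p of 0.726 to 0.887 from limma. Without F replicate 3 these log2 changes were 0.01, 0.07 and 0.11. Summed over the 4 rows, receptors had 37.1 ± 0.621 TPM in CK and 29.3 ± 5.68 in F. The IGF2-binding mannose-6-phosphate receptor, igf2r by Swiss-Prot, was not a member by its NR name, and it had 35.7 ± 1.65 TPM in CK and 39.2 ± 5.49 in F (log2 change 0.12, limma adjusted p = 0.589).

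**Figure D4:**
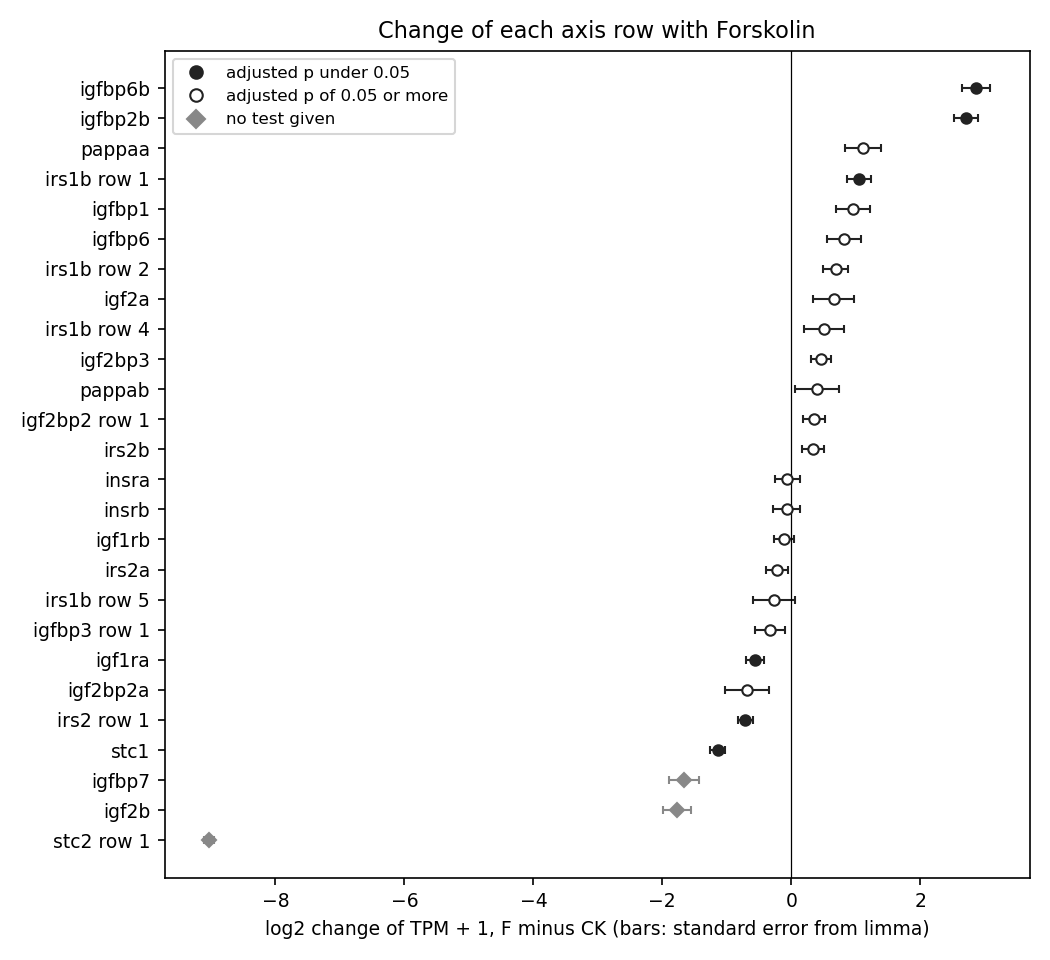
Log2 change of TPM + 1 (F minus CK) for the 26 member rows, with bars for the standard error from limma, filled circles for rows at an adjusted p under 0.05, open circles for the others and grey diamonds for stc2, igf2b and igfbp7, for which no test is given. Igfbp6b and igfbp2b lie at 2.87 and 2.71, stc1 and igfbp7 at −1.14 and −1.66, and most others within 1 of 0.

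Insulin receptor substrates are the adaptors that pass the signal of both receptor kinds to PI3 kinase. The leading irs2 row had 19.6, 18.8 and 20.1 TPM in CK and 11.1, 13.7 and 10.2 in F (log2 change −0.71, SE 0.12, limma adjusted p = 0.0173). The leading irs1b row had 3.69, 4.46 and 4.89 TPM in CK and 10.3, 12.1 and 8.04 in F (log2 change 1.05, SE 0.19, limma adjusted p = 0.0178). The 2 called rows thus differed in direction, each with groups that lay apart. They were not the 2 most abundant in CK, where irs2a and irs2b had 4.91 and 4.37 TPM, against 4.35 for the leading irs1b row. The irs2 call was lost without any 1 CK library or without F replicate 1 (adjusted p of 0.0656 to 0.0695 from limma), and the irs1b call without CK replicate 1 or 2 or F replicate 1 (0.0622, 0.0667 and 0.0699). Both calls were also lost with a replicate block (limma adjusted p of 0.0682 for irs2 and 0.0675 for irs1b). The second irs1b row showed the same direction at 3.58 ± 0.331 and 6.44 ± 1.33 TPM (log2 change 0.69, limma adjusted p = 0.0691). With TPM summed over rows of 1 NR name, the log2 change of irs1b was 0.81 and did not pass (limma adjusted p = 0.132). Irs2a and irs2b, at means of 4.09 to 5.81 TPM, did not pass (log2 changes of −0.22 and 0.34), nor did irs1b rows 4 and 5, which lay near 1 TPM (0.51 and −0.27).

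The IGF2 mRNA-binding proteins share the IGF name but are RNA-binding proteins that act on the stability and translation of many transcripts. Of the 3 tested rows, 0 passed in limma at an adjusted p under 0.05, and 1, igf2bp3, had an unadjusted p under 0.05. Igf2bp2a was the most abundant, at 20.9, 18.9 and 38.0 TPM in CK and 21.1, 15.5 and 10.3 in F, with groups that overlapped and a CK replicate 3 far above the other libraries (log2 change −0.68, adjusted p = 0.279). Igf2bp3, typical of fetal and proliferating cells, had 6.28 ± 0.675 TPM in CK and 9.02 ± 1.22 in F (log2 change 0.46, adjusted p = 0.107), and the leading igf2bp2 row 6.55 ± 0.151 and 8.83 ± 1.85 TPM (0.36, adjusted p = 0.240). In both of these every F library lay above every CK library.

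Ordered by mean TPM, CK cells had stc2 far above all other members, followed by igf2bp2a, igfbp6b, igf1ra, irs2, pappaa and igf2b at 25.9 to 16.8 TPM, whose neighbours in that order did not differ beyond their spread. In F the order was led by igfbp6b at 167 ± 35.1 TPM, then pappaa at 38.8 ± 11.7 TPM and igfbp1 at 21.6 ± 6.31 TPM. The 14 rows that did not enter the test had means over the 6 libraries of at most 3.29 TPM, and 3 of them had a listed protein domain, against 23 of the 26 rows that entered. They were 7 of the 14 receptor substrate rows and 3 of the 6 IGF2 mRNA-binding protein rows, together with an igfbp3 row and the 3 minor stc2 rows. The highest of them owed their mean to single libraries, such as the second igf2bp2 row with 17.6 TPM in CK replicate 2.

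Around the axis, 3 lists of partner genes were counted in the same fit. Of 44 tested rows of IGF and insulin signal transduction, 6 were higher, 3 lower and 35 neither (median log2 change 0.06), against 6.15% higher and 6.07% lower of all tested rows. Among the 35, pik3cd entered the test through F alone, at 0.573 ± 0.327 TPM in CK and 1.43 ± 0.196 in F. The balance of this list turned with the scaling, with 5 higher and 6 lower after median-of-ratios scaling and 5 and 5 after quantile normalization. With no variance trend, 2 were higher and 3 lower. Without CK replicate 1, 2 or 3 or F replicate 1, 3, 2, 4 and 3 were higher and 1 lower each time, and without F replicate 2 or 3, 6 were higher and 2 lower. Akt1, the kinase below PI3 kinase, rose from 61.2 ± 9.42 to 199 ± 31.5 TPM (by 1.68 in log2, limma adjusted p = 0.00194), and eif4ebp1, a brake on cap-dependent translation, from 80.0 ± 4.35 to 115 ± 6.86 TPM (0.52). Gab1, a docking protein, rose from 10.4 ± 1.06 to 20.1 ± 2.94 TPM (by 0.88 in log2, limma adjusted p = 0.0114, and 0.0525 without CK replicate 2). Grb2a, an adaptor of the Ras branch, fell from 21.2 ± 1.31 to 12.2 ± 0.860 TPM (−0.75). Map2k1, the most abundant at 813 ± 41.8 TPM in CK and 1012 ± 103 in F, did not pass (limma adjusted p = 0.111), although it did without F replicate 2 (adjusted p = 0.0394).

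Of 13 rows for IGF processing and other proteases of binding proteins, 4 were higher, 3 lower and 6 neither, against 6.15% and 6.07% of all tested rows (median log2 change −0.14, with 2 higher without CK replicate 1, 2 or 3 or F replicate 2, and 1 lower without CK replicate 2). The HtrA family, secreted serine proteases whose mammalian member HTRA1 cuts IGFBP5, had 4 rows, of which 1 was higher, 1 lower and 2 neither. Htra3 rose from 94.1 ± 4.77 to 351 ± 47.8 TPM (by 1.88 in log2, limma adjusted p = 0.000542), whereas htra1b fell from 367 ± 21.6 to 169 ± 32.9 TPM (−1.13, adjusted p = 0.00721). The other two did not pass, with htra1a, the most abundant of the family, at 786 ± 47.4 TPM in CK and 714 ± 54.2 in F (−0.14, limma adjusted p = 0.420) and htra3a at 4.34 ± 1.22 and 2.35 ± 0.646 TPM (−0.66, adjusted p = 0.181). Adam12, a membrane metalloproteinase that in mammals cuts IGFBP3 and IGFBP5, rose from 44.4 ± 2.48 to 70.4 ± 2.81 TPM (0.65). Mmp2, a gelatinase and the most abundant row, fell from 2868 ± 113 to 1823 ± 76.4 TPM (−0.65, limma adjusted p = 0.00857, and 0.0532 without CK replicate 2).

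Growth hormone drives IGF production in liver and acts through JAK2 and STAT5. Of 10 tested rows of that axis, 1 was higher, 2 lower and 7 neither, counts of a short list beside 6.15% and 6.07% of all tested rows (median log2 change −0.08). The growth hormone receptor ghr itself was scarce, at 0.730 ± 0.135 TPM in CK and 1.27 ± 0.211 in F. It entered the test through F alone, so no test is given, though it is among the 7 counted as neither. The prolactin receptor prlr fell from 8.02 ± 0.200 to 3.38 ± 0.285 TPM (−1.05), and socs3, an inhibitor of cytokine receptors, from 55.3 ± 1.84 to 23.5 ± 4.13 TPM (−1.21). Cish, a feedback inhibitor of the same family, rose from 11.7 ± 1.51 to 25.5 ± 5.91 TPM (by 1.05 in log2, limma adjusted p = 0.0172). That call was lost without CK replicate 1, 2 or 3 or F replicate 1 (adjusted p of 0.0503 to 0.0603), which left no row of this list called higher.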

How the data were processed

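RNA of 6 libraries was sequenced by the authors and, per the methods of the study, assembled with Trinity and quantified with RSEM. The deposited values are TPM, computed by the authors for assembled genes. The labels name RSEM 1.3.3, DESeq2 1.24.0, TopHat2 2.1.1 and Cufflinks 2.2.1, and which of them made the deposited values is not settled beyond the Trinity identifiers of the rows. Columns of group means by the authors differ by at most 3.33e-07 TPM from means of their libraries and were not used further. The study also describes a medium with less Forskolin, and the dose given here is that of the labels. TPM keeps no read depth, so no counting interval is given, and the limit on precision is the 3 libraries per group. TPM is not a count, so the test of the study could not be repeated.

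A row needed 1 TPM in 3 or more libraries to be tested, on the log2(TPM + 1) scale, by limma 3.58.1 under R 4.3.3 (eBayes with trend, two-sided, Benjamini-Hochberg over all tested rows, threshold 0.05). The labels give all samples the same batch entry. Members and lists were chosen with earlier results of these data known. Values in every library are given for stc2, igf2b, called members and the most abundant row of a role, and lists name up to 4 rows by smallest adjusted p and the most abundant. Some further members, some list rows and igf2r were named after their values were seen. List rows were matched on Swiss-Prot or NR names, with members left out, and 6 rows whose NR name gave another gene were dropped. Names come from other species. Each library was left out in turn, and the other alternatives were a replicate block, summed rows of 1 NR name, a fold threshold, median-of-ratios or quantile scaling, no variance trend, 0.1 added in place of 1, and a filter at 5 TPM or none. The fit was tested on simulated data. Tables used pandas 2.3.3, plots matplotlib 3.10.9 (Python 3.11.15).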

Additional observations from a re-analysis of the deposited data

How the results depend on the processing

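With igfbp7 counted in, 3 of 24 members were higher and 4 lower in F, and the counts here are of those 24. Leaving out igfbp7, which entered through CK alone, gave 3 higher and 3 lower of 23 (chosen after seeing the data). The count of higher members was 5 with a filter at 5 TPM (of 15 rows tested, igfbp1 and pappaa added). Of all 15253 rows tested with that filter, 2117 were higher. The count of higher members was also 5 after median-of-ratios scaling and after quantile normalization (irs1b row 2 and pappaa added by both). Of all 37532 tested rows, 2574 and 2666 were higher with those scalings. The count of lower members was 2 with a log2 change beyond 1 required (against 3.90% of all tested rows). With a library left out, 2 to 4 members were higher and 2 to 4 lower. The log2 change of stc2 was −9.45 with 0.1 added to TPM in place of 1, which shrinks the change of a low F level less, and −9.11 to −8.98 with a library left out. That of igf2b was −1.88 to −1.55 with a library left out and −1.97 with 0.1 added. Signs changed only in rows that never passed. Without F replicate 3 the log2 changes of igf1rb, insra, insrb and hspa5 were 0.01, 0.07, 0.11 and 0.14 (without F replicate 2, at the other end of the range, −0.23, −0.18, −0.22 and −0.21), and with rows of 1 NR name summed that of igf2bp2 row 1 was −0.13.

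Equal replicate numbers did not deviate together (correlations of deviations of 0.006, 0.009 and 0.006 for the 3 pairs), so the numbers are taken as names. With the replicate block, 1 member (stc1) was lower and 3 were higher. Among the higher, igfbp1 was gained (limma adjusted p = 0.0256) and irs1b row 1 was lost (0.0675). The signal transduction list then had 1 higher and 1 lower, the protease list 2 and 2 and the growth hormone list 0 and 2. The stress list had 2 and 1 and the calcium list 1 and 0. Over all rows 941 were higher and 1071 lower, against 2310 and 2277 without the block. Over all rows, leaving out a library gave 931 to 1944 higher and 1006 to 1888 lower. No read depth was available to set how far values near 1 TPM can be trusted.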

Other observations

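In mammalian cells stanniocalcin-2 is induced by endoplasmic reticulum stress, amino acid shortage and hypoxia. Of 15 tested rows of that response, 3 were higher in F, 3 lower and 9 neither by limma, against 6.15% higher and 6.07% lower of all tested rows (median log2 change 0.10, against −0.01 over all rows, with 1 higher without CK replicate 1, 2 or 3 and 4 without F replicate 3). Sesn2, a stress-induced inhibitor of mTOR signaling, fell from 13.5 ± 0.632 to 4.38 ± 0.509 TPM (−1.43 in log2, limma adjusted p = 0.00182), and chac1, which degrades glutathione, from 165 ± 17.2 to 75.7 ± 15.4 TPM (−1.13, adjusted p = 0.0102). Atf4b, a paralog of the transcription factor at the head of the amino acid response, went from 347 ± 4.50 to 222 ± 30.1 TPM (−0.65, limma adjusted p = 0.0132), a call lost without CK replicate 1, 2 or 3 or F replicate 1 (adjusted p of 0.0506 to 0.0581). The paralog atf4 had 363 ± 2.97 TPM in CK and 347 ± 31.9 in F and did not pass (−0.07, limma adjusted p = 0.678). Vegfaa, a hypoxia-induced angiogenic factor, rose from 12.0 ± 1.03 to 35.5 ± 10.1 TPM (1.46, adjusted p = 0.00924). Hif1a rose from 79.8 ± 1.20 to 131 ± 20.1 TPM (0.69, limma adjusted p = 0.0137). Trib3 rose from 28.5 ± 2.34 to 46.5 ± 8.69 TPM (0.67, limma adjusted p = 0.0321). The hif1a and trib3 calls were both lost without CK replicate 1, 2 or 3, which left vegfaa as the only row called higher. The chaperone gene hspa5, the most abundant row, had 377 ± 21.0 TPM in CK and 371 ± 87.2 in F (−0.05, limma adjusted p = 0.893, and a log2 change of 0.14 without F replicate 3).

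Of 10 tested rows of calcium and phosphate regulation, the setting in which fish stanniocalcin is best known, 1 was higher, 1 lower and 8 neither by limma, where all tested rows had 6.15% and 6.07% (median log2 change −0.26, with 3 higher without F replicate 3). Slc20a1b, a sodium-phosphate transporter, rose from 146 ± 8.29 to 330.4 ± 11.5 TPM (by 1.17 in log2, limma adjusted p = 0.000509), while its paralog slc20a1a had 93.0 ± 11.6 and 62.6 ± 13.2 TPM and did not pass (−0.58, adjusted p = 0.0819), but did without F replicate 3 (−0.73, adjusted p = 0.0340). Pth1r, the receptor of parathyroid hormone, went from 108 ± 16.5 to 73.5 ± 7.94 TPM (−0.55, limma adjusted p = 0.0485), a call lost with any 1 library left out (adjusted p of 0.0511 to 0.134). In the wider insulin and relaxin family, insl5b was listed at 0 TPM in all 3 CK libraries and at 1.35, 2.62 and 6.16 TPM in F, and the relaxin-3 receptor rxfp3 at 0 TPM in all CK libraries and at a mean of 1.87 ± 0.443 TPM in F. Both entered the test through F alone, so no test is given.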
